A study of Mus musculus with 8 samples.

Results

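The keratins are the family of intermediate filament genes described here in the mouse ventral prostate. They were taken as the genes whose symbol starts with Krt and a digit, without the keratin-associated proteins, and each was read from its 1 probe set with a single symbol and the highest mean over all 8 arrays. This gave 40 keratin genes of 12393 genes measured. No group difference entered the choice of probe set, but the family and its classes were chosen with earlier results of these data known. By the roles usually given to them in prostate, 3 were grouped as basal (Krt5, Krt14 and Krt15), 3 as luminal (Krt8, Krt18 and Krt19) and 34 as other keratins.

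Keratin filaments are built from pairs of a type I and a type II keratin, so neither type forms a filament alone. In the prostate gland, tall secretory luminal cells carry the simple epithelial pair of Krt8 and Krt18, with Krt19, while the flat basal cells beneath them carry Krt5 with Krt14 or Krt15. Pathologists use basal keratins to see whether the basal layer around a gland is continuous, which is why the family is followed in prostatic intraepithelial neoplasia, a proliferation of atypical luminal cells inside existing glands.

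Ventral prostate total RNA of 20 weeks old FVB mice was hybridised to Affymetrix arrays, 1 per sample. The 4 wild type samples are labelled normal. The 4 transgenic samples, labelled mPIN for mouse prostatic intraepithelial neoplasia, overexpress a constitutively active allele of the p110 beta isoform, which forms the catalytic part of PI3-kinase. The promoter of the transgene, and whether each array holds 1 animal, are not given in the sources used here, and p-values therefore cover the spread among the arrays, part of which may be technical. The question was how the lesion differs from normal prostate in its keratins. Values are log2 expression values after RMA, and a difference is always transgenic minus wild type on that scale, where 1 is a doubling.

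The arrays held prostate tissue: the probasin gene Pbsn, Msmb and the prostate homeobox gene Hoxb13 lay at 10.14 or higher on every array. Array medians ran from 5.40 to 5.51. The lobe was taken from the labels and was not checked. In the limma fit over all probe sets, 5.99% of the 12393 genes were higher and 4.98% were lower in transgenic samples at an adjusted p under 0.05. In this bulk tissue, fewer cells of a type and less RNA per cell cannot be told apart.

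The family as a whole did not stand out from these shares. Of the 40 keratins 2 rose, Krt8 and Krt79, which is 5%, and 2 fell, Krt5 and Krt15, also 5%, while 36 did not pass. The median difference was -0.10, against -0.04 over all genes. Transgenic values lay wholly above wild type values for 2 keratins and wholly below for 4, or 5% and 10%, beside 8.09% and 8.2% of all genes. By role, 2 of the 3 basal keratins fell (median -1.22), 1 of the 3 luminal keratins rose (median 0.39) and 1 of the 34 others rose (median -0.10), while the rest of each group, Krt14, Krt18 and Krt19 included, did not pass. No test compared the classes as wholes. Pairs of single basal and luminal keratins, given below, did not pass after adjustment, in a test whose smallest possible p is limited by the number of arrays.

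**Figure D1:**
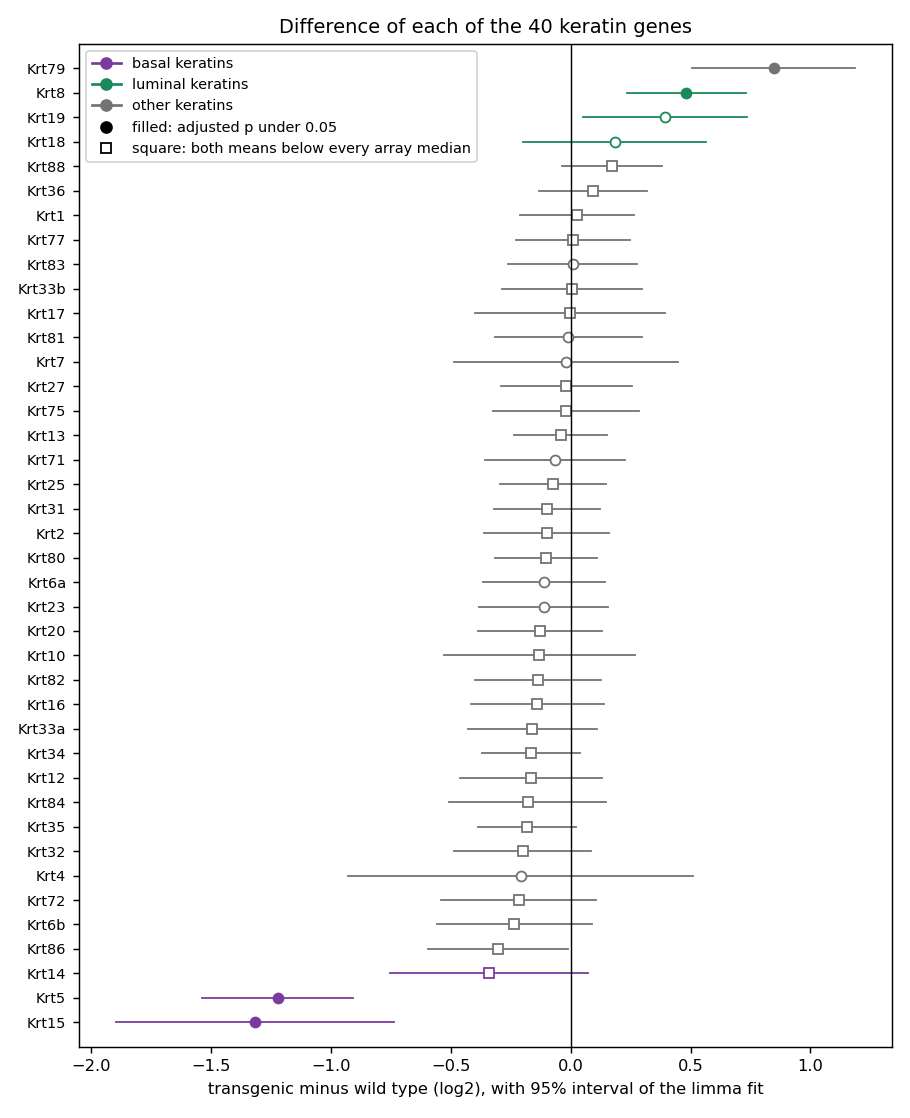
Difference of each of the 40 keratin genes, transgenic minus wild type in log2 units, with the 95% interval of the limma fit. Filled symbols passed an adjusted p of 0.05 and squares mark genes whose group means both lay below the median of every array. Krt15 and Krt5 lie farthest left, at -1.32 and -1.22, Krt79 and Krt8 farthest right, at 0.85 and 0.48, and most others near 0.

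The keratins that changed lie in both genomic clusters of the family. By RefSeq's annotation, chromosome 11 holds 19 of the 40, all of type I, and chromosome 15 holds 21, of type II except Krt18. Krt15, which fell, and Krt19, which did not pass and had the opposite sign, are direct neighbours with 0 annotated genes between them. On chromosome 15, Krt79 and Krt8, which rose, are separated by 1 gene, Krt78, and Krt4, which did not pass, directly adjoins Krt79. Of the 20 type II keratins 2 rose and 1 fell, and of the 20 type I keratins 0 rose and 1 fell.

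The promoters of Krt5, Krt8 and Krt79, which passed, are shown because Klf4, a Kruppel-like factor known to bind CACCC boxes, rose in the same tissue. Klf4 went from 6.33 ± 0.35 to 9.07 ± 0.17 (SD, n = 4 each; adjusted p = 1.94e-06). Each sequence is the 250 bases before the RefSeq start on the minus strand of assembly GRCm38.p6, 5′ to 3′, with every CACCC on either strand in capitals (GGGTG on the strand shown). RefSeq promoter entries matched 25 of the 40 keratins, among them Krt5, Krt8 and Krt79. Krt15, which also passed and fell, had no entry, so its promoter is not shown.
Krt5, chr15:101712906-101713155: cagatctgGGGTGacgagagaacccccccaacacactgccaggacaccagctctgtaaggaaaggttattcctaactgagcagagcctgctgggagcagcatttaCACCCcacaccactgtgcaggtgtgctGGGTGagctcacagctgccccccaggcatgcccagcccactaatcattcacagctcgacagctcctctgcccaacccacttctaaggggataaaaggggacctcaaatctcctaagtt
Krt8, chr15:102004343-102004592: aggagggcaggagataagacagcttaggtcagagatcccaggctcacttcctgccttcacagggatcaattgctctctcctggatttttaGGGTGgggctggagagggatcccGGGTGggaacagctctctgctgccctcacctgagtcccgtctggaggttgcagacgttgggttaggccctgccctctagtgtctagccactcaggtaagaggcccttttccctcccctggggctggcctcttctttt
Krt79, chr15:101940325-101940574: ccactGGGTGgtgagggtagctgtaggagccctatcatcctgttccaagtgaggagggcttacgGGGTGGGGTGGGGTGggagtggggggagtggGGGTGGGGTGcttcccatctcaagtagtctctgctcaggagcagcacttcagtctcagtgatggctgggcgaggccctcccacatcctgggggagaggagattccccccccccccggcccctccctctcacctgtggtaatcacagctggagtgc
The Krt79 sequence holds 6 CACCC boxes, the Krt5 sequence 3 and the Krt8 sequence 2. At least 1 CACCC stands in 21 of the 25 keratin promoters (84%) and in 51.3% of 27025 promoters of the same length. A part of Klf4 in the keratin differences was not tested. Other motifs looked for also differed in share between the keratin promoters and all promoters. The TATA box (TATAAA) stood in 48% and 12.97%, and the Sp1 site (GGGCGG) in 8% and 32.94%. The AP-1 site stood in 4% and 6.87%, and the AP-2 site in 8% and 13.56%. A match here is a description of letters and not a binding site.

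Among the basal keratins, Krt5 and Krt15 were about 2.3-fold to 2.5-fold lower in transgenic samples. Krt5, the type II keratin of basal cells, was at 8.29, 8.01, 8.43 and 8.57 in wild type arrays 1 to 4 and at 7.42, 7.06, 6.98 and 6.96 in transgenic arrays 1 to 4. Every transgenic value lay below every wild type value, and the lowest wild type value was 8.01 against a highest transgenic value of 7.42. Krt5 fell by 1.22 ± 0.14 (SE; adjusted p = 0.000241), which makes wild type 2.33-fold higher. Leaving out each array gave differences from -1.33 to -1.14.

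Krt15, a type I keratin of basal cells that can pair with Krt5, fell by a similar amount but less evenly. It was at 8.22, 8.27, 8.41 and 8.42 in wild type and at 6.57, 6.93, 8.002 and 6.54 in transgenic arrays. The wild type arrays lay within 0.20 of each other, and transgenic array 3 stood 1.07 above the next transgenic array, though still below all wild type arrays. The wild type SD was 0.10 and the transgenic SD 0.68. Krt15 fell by 1.32 ± 0.26 (SE; adjusted p = 0.00849), with wild type 2.49-fold higher, and by 1.65 without transgenic array 3. With the stromal score described below as a covariate it was at -1.17 and lost its call (adjusted p = 0.135). Krt5 was not high on that array, at 6.98.

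Krt14, the usual type I partner of Krt5 in basal cells, could not be followed well. Its values were 4.66, 5.67, 4.95 and 4.91 in wild type and 4.62, 4.95, 4.61 and 4.65 in transgenic arrays, so 7 of 8 lay below every array median, where background can set the value. The difference of -0.34, with a 95% interval from -0.75 to 0.07, did not pass (adjusted p = 0.349), and without wild type array 2 it was -0.13. The other 2 probe sets that name Krt14 alone, also below the array medians, gave -0.12 and -0.22, and a probe set naming both Krt17 and Krt14 gave 0.16, none past the threshold. A change of Krt14 was not detectable at this signal.

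**Figure D2:**
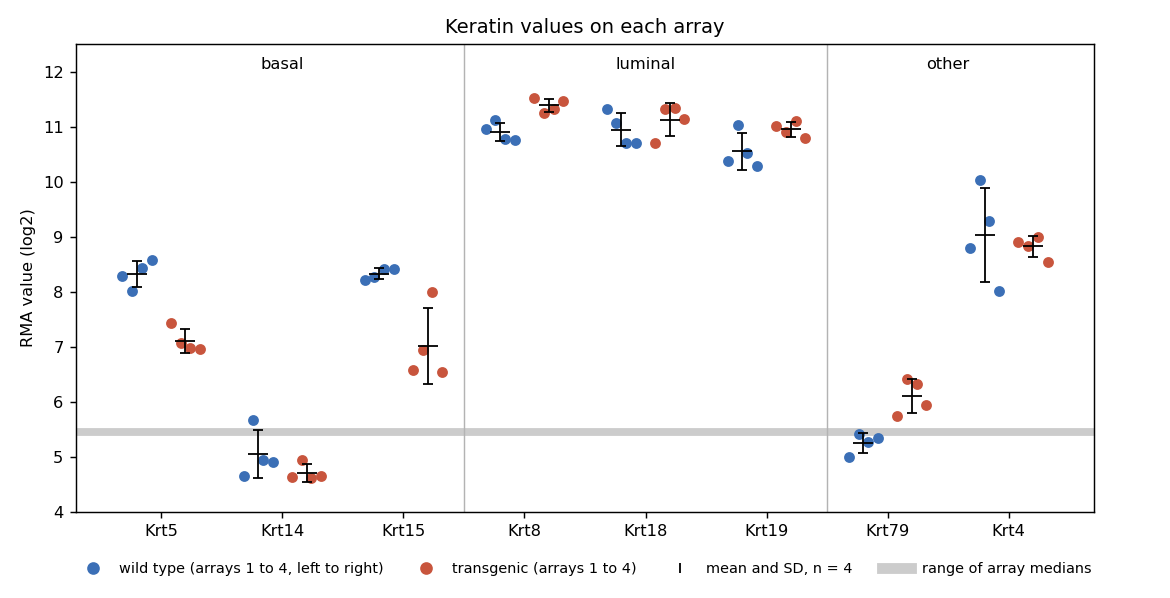
RMA values in log2 units of 8 keratins on each of the 8 arrays, wild type in blue and transgenic in red, arrays 1 to 4 from left to right, with mean and SD (n = 4). The grey band spans the array medians, 5.40 to 5.51. Groups do not overlap for Krt5, Krt15, Krt8 and Krt79, transgenic array 3 stands high for Krt15, and the wild type arrays are widely spread for Krt4.

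The luminal keratins all had positive differences, and Krt8 passed. Krt8, the type II keratin of simple epithelia, was at 10.96, 11.12, 10.77 and 10.76 in wild type and at 11.52, 11.25, 11.31 and 11.46 in transgenic arrays. The groups did not overlap, although the highest wild type array and the lowest transgenic array were 0.13 apart. Krt8 rose by 0.48 ± 0.11 (SE), or 1.40-fold (adjusted p = 0.0189). All 3 of its probe sets passed, at 0.48, 0.55 and 0.38, but each carries an identifier that marks it as matching more than 1 transcript. The call was lost when wild type array 3 was left out, with an adjusted p = 0.0675, and when transgenic array 4 was, with an adjusted p = 0.0637.

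Krt18, the type I partner of Krt8, was at 11.31, 11.07, 10.70 and 10.70 in wild type and at 10.70, 11.32, 11.34 and 11.15 in transgenic arrays. The groups overlapped across nearly their whole range. The difference of 0.18, with a 95% interval from -0.20 to 0.57, did not pass (adjusted p = 0.634). It was 0.10 without wild type array 3 or wild type array 4, and 0.12 or 0.11 when transgenic array 2 or 3 was left out. Leaving out the first wild type array gave 0.31 and leaving out the first transgenic array gave 0.33. Transgenic array 1 had the highest Krt8 value and the lowest Krt18 value of its group, so the partners did not vary together there.

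Krt19, a small type I keratin of simple and ductal epithelia, was at 10.37, 11.04, 10.52 and 10.29 in wild type and at 11.01, 10.90, 11.09 and 10.79 in transgenic arrays. The wild type arrays other than array 2 lay below all transgenic arrays, and array 2 lay among them. The difference of 0.39 ± 0.16 (SE) did not pass (adjusted p = 0.160). Without wild type array 2 it was 0.55 and passed (adjusted p = 0.0151).

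Differences between keratins of the same array show whether they changed unequally. Krt5 minus Krt8, basal against luminal type II, was -2.67, -3.10, -2.34 and -2.18 in wild type and -4.09, -4.19, -4.33 and -4.50 in transgenic arrays. The groups did not overlap and the mean moved by -1.70 (two-sided exact permutation p = 0.0286, or 0.0714 adjusted over 5 pairs, n = 4 each). Krt15 minus Krt19, basal against luminal type I, moved by -1.71, from a mean of -2.23 ± 0.38 to -3.93 ± 0.60 (SD; exact permutation p = 0.0286, adjusted 0.0714), again with no overlap. A p of 0.0286 is the smallest that the 70 assignments of arrays allow, and neither pair passed 0.05 after adjustment. With both at that smallest p, they could have passed only if another of the 5 pairs had reached it too. Missing the threshold therefore does not show that basal and luminal keratins changed alike.

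The remaining 3 pairs gave smaller shifts. Krt14 minus Krt18 moved by -0.52 (exact permutation p = 0.114, adjusted 0.143). Krt5 minus Krt14, the basal partners, moved by -0.88 (exact permutation p = 0.0857, adjusted 0.143), with wild type array 2 at 2.34 and the other wild type arrays between 3.48 and 3.66. Krt8 minus Krt18, the luminal partners, moved by 0.30 (exact permutation p = 0.286, adjusted 0.286), and by 0.11 when transgenic array 1 was left out and 0.20 when wild type array 1 was. No unequal change within either partner pair was shown, and Krt14 is near background in its pair.

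**Figure D3:**
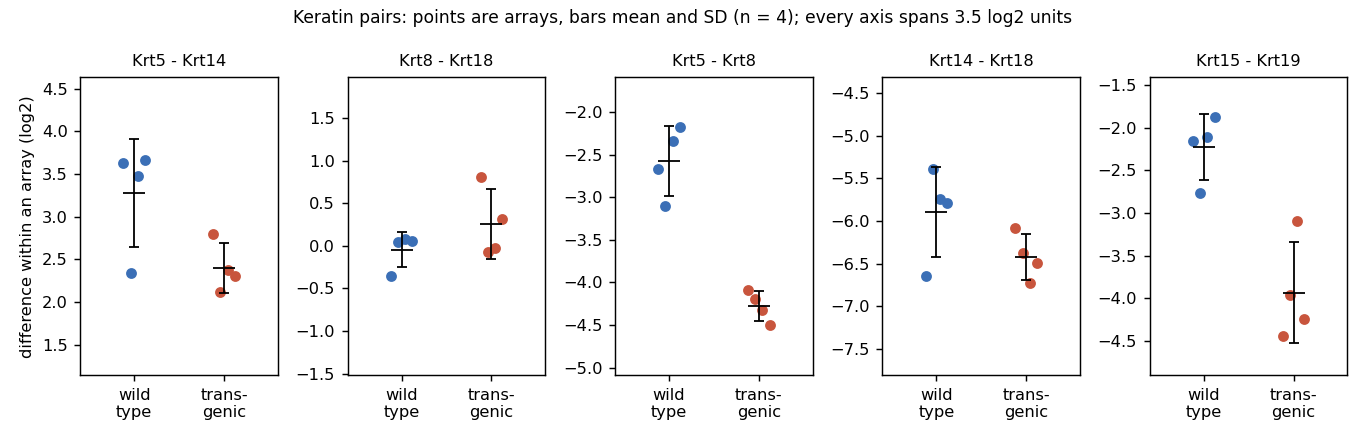
Within-array log2 differences of 5 keratin pairs, with each point an array and bars giving mean and SD (n = 4). The axes are placed differently but all span 3.5 log2 units. Krt5 minus Krt8 and Krt15 minus Krt19 separate the groups completely, with means moved by -1.70 and -1.71, and the other 3 pairs overlap.

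Of the 34 other keratins, Krt79 rose. Krt79, a type II keratin known from the ducts of skin glands, was at 4.998, 5.41, 5.26 and 5.35 in wild type and at 5.74, 6.40, 6.32 and 5.94 in transgenic arrays. All transgenic values lay above all wild type values, and the wild type mean of 5.26 lay below every array median. Krt79 rose by 0.85 ± 0.16 (SE), or 1.80-fold (adjusted p = 0.00496), a fold that is approximate because background can set the wild type level. Leaving out each array gave 0.75 to 0.97, with adjusted p up to 0.0204.

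Krt4, a keratin of stratified internal epithelia that pairs with Krt13, had the highest mean among the keratins that did not pass outside the luminal group. It was at 8.79, 10.03, 9.28 and 8.01 in wild type and at 8.90, 8.83, 9.0003 and 8.55 in transgenic arrays. The transgenic arrays all lay inside the wild type range, and the wild type SD of 0.85 was 4.34 times the transgenic SD of 0.20. The difference of -0.21, with a 95% interval from -0.93 to 0.51, did not pass (adjusted p = 0.796), and it was 0.13 without wild type array 2. Its partner Krt13 was below every array median, with a difference of -0.04.

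Krt7, a keratin of ductal and other simple epithelia, was at 7.08, 7.68, 7.14 and 7.08 in wild type and at 6.68, 7.40, 7.74 and 7.09 in transgenic arrays. The mean difference was -0.02 (95% interval -0.49 to 0.45; adjusted p = 0.981). Krt23, Krt6a and the hair follicle keratins Krt71, Krt81 and Krt83 also had a mean above the array medians in at least 1 group, with differences between -0.11 and 0.01, and did not pass. Krt6a resembles Krt6b closely in sequence and Krt81, Krt83 and Krt86 resemble one another, so their probe sets may not tell the copies apart.

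The other 27 keratins, Krt14 among them, had both group means below the median of every array, and 0 of them passed (1 at an unadjusted p under 0.05). They include Krt6b, Krt16 and Krt17, keratins of injured or activated epithelium, Krt1 and Krt10, of cornifying epidermis, Krt20, of intestine and urothelium, and most keratins of hair. Their differences ran from -0.34 to 0.17, with a median of -0.13 and 22 of 27 negative (81.5%). Over the 5040 genes that were equally dim the median was -0.05, 65.7% were negative and 2.06% passed. Krt86, a hair keratin with the smallest p among keratins outside the basal and luminal groups that did not pass, had a difference of -0.30 ± 0.13 (SE; adjusted p = 0.218). For Krt34 and Krt35 all transgenic values lay below all wild type values, by -0.16 and -0.18 in the mean, without passing (adjusted p = 0.363 and 0.310). At this signal, changes of these genes can be missed.

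Other genes of the same cells were read from lists chosen beside the keratins. Outside the family 13 basal markers were measured, with a median of -0.19. Of these 4 fell (30.8%, beside 4.98% of all genes), 0 rose and 9 missed the threshold. Only 6 of the 13 had a mean above the array medians, so changes of the others can be missed. Col17a1, the hemidesmosomal collagen that anchors basal cells, fell by 0.82 (adjusted p = 0.000225), Trp63, the basal transcription factor p63, by 0.70 (adjusted p = 0.00652), Bcam, a laminin receptor, by 0.59 and Dst, whose epithelial product links keratins to hemidesmosomes, by 0.42. The wild type mean of Trp63, 5.02, and the transgenic mean of Col17a1, 4.59, lay below every array median, so these falls are approximate. Itga6 and Itgb4, the subunits of the hemidesmosomal integrin, had differences of 0.04 and -0.02 and did not pass. The median over the 3 basal keratins, -1.22, rests on a list too short to compare with this.

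Among 10 measured luminal markers outside the family, 6 rose (60%, beside 5.99% of all genes), none of them fell and 4 missed the threshold. The median was 0.46. Dpp4, a surface peptidase, rose by 1.99, the epithelial factor Elf3 by 1.26, Cd24a by 1.18 and the ETS factor Spdef by 0.68. Hoxb13 and Foxa1, transcription factors of prostate luminal cells, had differences of -0.14 and 0.08 and did not pass. The rise of Krt8 by 0.48 lay near the median of this list.

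**Figure D4:**
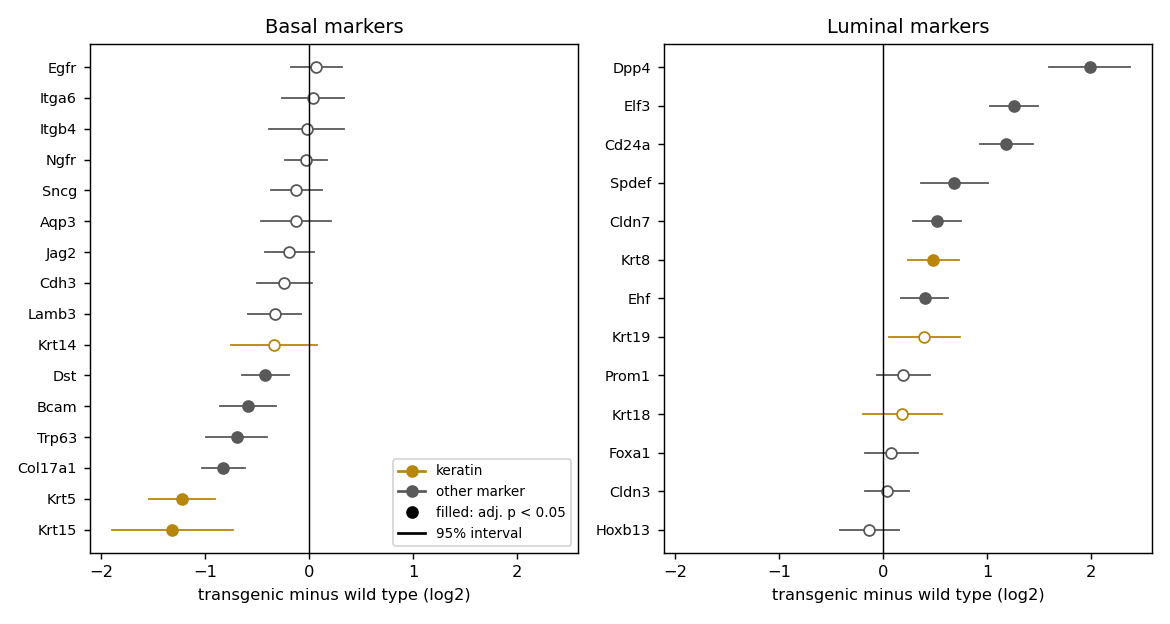
Differences of basal markers (left) and luminal markers (right), transgenic minus wild type in log2 units with 95% intervals, keratins in gold and other markers in grey, filled where the adjusted p was under 0.05. Krt15 and Krt5 lie below every other basal marker shown, while Krt8, Krt19 and Krt18, between 0.18 and 0.48, lie inside the range of the luminal markers.

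General epithelial markers, stroma and RNA quality moved with the groups as well. Among 11 epithelial markers 4 rose (36.4%, beside 5.99% of all genes) and 7 missed the threshold. The adhesion genes Epcam, up by 0.76, and Cdh1, encoding E-cadherin, up by 0.82, were among those that rose. The mean score of the 11 markers, each gene centred on its mean, ran from -0.20 to -0.16 in wild type. In transgenic arrays it ran from 0.09 to 0.26, and it shares Cldn3 and Cldn7 with the luminal list. For smooth muscle 3 of 12 markers fell (25%) and for fibroblasts 2 of 11 (18.2%), beside 4.98% of all genes, with 0 higher in either list. Pcp4 fell by 1.20 and Dcn, encoding decorin, by 1.15. Differences ran from -1.20 to -0.03 over the smooth muscle list and from -1.17 to 0.73 over the fibroblast list. The stromal score from both lists ran from -0.19 to 0.79 in wild type and from -0.47 to -0.15 in transgenic arrays. With that score as a covariate Krt5 was at -1.47 (adjusted p = 0.00116) and Krt79 at 1.10 (adjusted p = 0.00945). Besides Krt15, Krt8 at 0.55 (adjusted p = 0.0981) lost its call, and Krt19 at 0.71 passed (adjusted p = 0.0457). Calls over all genes also became fewer in that fit, 368 higher and 292 lower against 742 and 617 without the score. The 3 prime minus 5 prime difference of the Gapdh and beta actin controls, a sign of RNA quality, was 1.47 ± 0.09 (wild type) against 1.12 ± 0.19 (transgenic; SD, n = 4 each), and its part in the keratin differences was not tested.

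Genes that hold the keratin network were also read. Among 14 measured genes of desmosomes and keratin linkers Dst fell, which is 7.14% beside 4.98% of all genes, none of them rose, and 13 missed the threshold (5 of the 14 at an unadjusted p under 0.05), with a median of -0.13. Dst was already counted among the basal markers that fell. Dsp, encoding the desmoplakin that ties keratins to desmosomes, had a difference of 0.08 and Plec, encoding plectin, of -0.09. The desmosomal plakophilin gene Pkp1 was at -0.56 (adjusted p = 0.106), Fam83h, with groups that did not overlap, at -0.33 (adjusted p = 0.112) and the epiplakin gene Eppk1 at 0.38 (adjusted p = 0.132), none past the threshold. Of 14 other intermediate filament genes 0 passed in limma (1 at an unadjusted p under 0.05), and Vim, the mesenchymal filament vimentin, had the smallest p, with 7.83 ± 0.80 for wild type against 6.89 ± 0.22 for transgenic arrays (SD, n = 4 each; adjusted p = 0.0886). Of 11 genes of squamous and cornified epithelium, all with means below the array medians, 0 passed (0 at an unadjusted p under 0.05), with Lor, encoding loricrin, at -0.25 (adjusted p = 0.310).

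Markers of other epithelial cells that carry keratins were also read. Of 5 measured urothelial markers 1 fell (20%, beside 4.98% of all genes), Upk1a by 0.96 (adjusted p = 0.00549), and 4 did not pass. Only 2 of the 5 had a mean above the array medians, so changes of the others can be missed. Upk2 had a difference of -0.02 and the umbrella cell keratin Krt20 of -0.13. Of 6 neuroendocrine markers 0 passed in limma (2 at an unadjusted p under 0.05), with Chga, encoding chromogranin A, at -0.22 (adjusted p = 0.230). Just 1 of these 6 had a mean above the array medians, so changes here can be missed as well.

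Transcription factors known to act on keratin genes were measured for 15 genes, of which 4 rose (26.7%), 2 fell (13.3%) and 9 missed the threshold. Over all genes 5.99% rose and 4.98% fell. Klf4 had the largest rise, 2.74, followed by Elf3 at 1.26, Klf6 at 0.89 and Ehf at 0.40, while Trp63 and Cebpa fell by 0.70 and 0.40. Elf3 and Ehf were already counted among the luminal markers that rose, and Trp63 among the basal markers that fell. Tfap2a, encoding the AP-2 factor known to act on the Krt5 and Krt14 promoters, had a difference of -0.03, and Klf5, a factor of basal epithelium, of 0.14. These values stand beside the keratin differences, and no link between them was tested.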

How the data were processed

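Per the labels, total RNA purified with Trizol and an RNeasy column was labelled with biotin for Affymetrix arrays. The deposited table holds log2 values, and the submitters' processing notes name RMA as their source, version and annotation not given in the sources used here. RMA corrects background, quantile normalizes and summarises probe sets, so a shift common to all transcripts would be removed. Of 22690 probe sets 64 controls were left out, and limma 3.58.1 (R 4.3.3; lmFit, then eBayes) was run on all 22626 others, with Benjamini-Hochberg adjustment over all of them and a threshold of 0.05. Names came from GEO's platform annotation (20380 with 1 symbol, 691 with several, 1555 with none), updated through RefSeq gene identifiers of GRCm38.p6. The 40 keratins had 49 probe sets of their own, 6 genes having several. The number of arrays limits the precision. No array was a copy of another: correlations reached 0.996 at most, with up to 40 identical values.

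The text names the 6 basal and luminal keratins, every other keratin past the threshold, the keratin with the highest mean and that with the smallest p among the other keratins that did not pass, and from each list up to 4 members that passed, or the one with the smallest p. Other genes named were chosen after their values were seen. The members, lists and tests were chosen with earlier results of these data known. Pairs of keratins were compared by an exact permutation test over 70 assignments of arrays. The fit was tested on simulated data. Alternatives were other normalizations, variance models, array weights, probe set rules, covariates, the replicate number as a block and leaving out each array.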

Additional observations from a re-analysis of the deposited data

Results flagged for a closer look

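In 28 groups of 4 arrays, 3 had a sample far from the others, where chance flags about 1 in 20 groups. The groups are not independent, since keratin pairs share keratins that were also looked at alone, so no excess over chance can be read from this. Krt14 was at 4.95 in transgenic array 2 and between 4.61 and 4.65 in the other transgenic arrays, all below the array medians. Krt5 minus Krt14 was 2.34 in wild type array 2, against 3.48 to 3.66 in the other wild type arrays. Krt8 minus Krt18 was -0.35 in wild type array 1, against 0.05 to 0.08 in the others.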

How the results depend on the processing

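Krt5, Krt15, Krt8 and Krt79 kept their direction and call under quantile and cyclic loess normalization, with array weights, with a variance trend and robust prior, without the dimmest 40% of probe sets, and over the mean of a gene's probe sets. Without shared probe sets Krt8 has none left, and 1 keratin was higher. With the stromal score as a covariate 1 keratin was lower, and Krt15 was at -1.17 and Krt8 at 0.55 without passing. Krt19 passed at 0.71, and Krt14 and Krt4 turned to 0.14 and 0.45. The stromal score correlates with the group at -0.70, and the standard error of Krt15 was 0.38 with it against 0.26 without. Over all genes 368 were higher and 292 lower with that score, against 742 and 617 in the main fit. The epithelial score correlates with the group at 0.97 over the 8 arrays and raised the standard error of Krt5 by a factor of 4.18, so group and score cannot be told apart. In that fit 0 keratins were higher and 0 lower, with Krt5 at -1.91, Krt15 at 1.81, Krt8 at -0.066 and Krt79 at 2.23, and over all genes 15 were higher and 2 lower.

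After the group mean of each probe set was subtracted, the remaining values of same-numbered arrays correlated above 0.1 in 2 of 4 pairs (from -0.31 to 0.33). The numbers were therefore not taken to pair the samples. With the replicate block 1 keratin was higher, Krt8 missing the threshold at 0.48 (adjusted p = 0.0505), and 2 were lower. Leaving out each array gave 1 to 3 higher and 2 lower keratins, with Krt8 from 0.43 to 0.55 (lost without wild type array 3 or transgenic array 4), Krt19 from 0.30 to 0.55 and Krt4 from -0.55 to 0.13. Signal over background limits the 27 dim keratins, whose median difference lay between -0.26 and -0.05 over all settings (8 of them in the fit without the dimmest probe sets). The differences of the 5 pairs kept their direction under both normalizations and without each array.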

Other observations

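Of the 13 keratins with a mean above the array medians, 6 were highest in wild type array 4 among the wild type arrays and 5 in wild type array 2. Array 2 had the highest wild type values of Krt4 (10.03), Krt19 (11.04), Krt8 (11.12), Krt7 (7.68) and, among keratins below the medians, Krt14 (5.67), and the lowest of Krt5 (8.01). Its stromal score, 0.79, was the highest of the 8 arrays, and without it the difference of Krt14 was -0.13 and that of Krt4 0.13.

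Among keratins below the array medians, the wild type arrays followed an order common to the array. Of the 27 such keratins, 20 were lowest in wild type array 1 and 18 were highest in wild type array 4 among the wild type arrays. The mean over all 5040 equally dim genes was 4.10 in array 1 and 4.36 in array 4. Without wild type array 4 the median difference of these keratins was -0.06, against -0.13 with it. The SD was larger in wild type than in transgenic samples for 29 of 40 keratins (72.5%) and for 64.1% of all genes.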
